A study of Sus scrofa with 4 samples.

Results

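The interleukin and interleukin receptor genes were examined in the ileum, the stretch of small intestine before the colon, of suckling piglets with low or high weight gain. Members were all pig genes whose symbol begins with IL and a digit and whose RefSeq transcript is named as the target of an array probe. This gave 33 of the 2389 genes that could be named on the array, 21 ligand genes and 12 receptor genes, read by 48 probes. The rule uses symbols and no measured value, although earlier results of these data were known when it was set. The symbols take in *IL29*, whose product is a type III interferon that signals through a receptor chain of the IL-10 family. Receptor genes that are on no named probe, such as those for the IL-1 and IL-17 receptors, were not analysed here.

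Each group was represented by 2 arrays of total RNA labelled with Cy3. Low gain stands for RNA pooled from 2 piglets, and high gain for RNA pooled from 3 piglets. All piglets were 16 days old, had Yorkshire × Landrace mothers and Duroc sires and were suckled by sows, and no other treatment is named. Within a group the arrays are lettered a and b. The labels do not tell whether a and b are separate pools or the same pool hybridised again, so p-values reflect array-to-array spread that may be purely technical, and the spread between piglets is unknown. The design text names weight at birth in place of weight gain, and the sample labels were used.

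Interleukins are secreted signals between cells. Those of the IL-1 family drive inflammation, those that share the common gamma chain keep lymphocytes alive and steer their differentiation, the IL-6 and IL-12 families shape T helper responses, and IL-10 restrains inflammation. In the gut they act between epithelium, lymphocytes and phagocytes, a traffic that matures while a piglet is suckling. Most receptors pair a chain for 1 ligand with a chain shared by several, so that the genes *IL2RG* (common gamma chain), *IL6ST* (signal transducer of the IL-6 family), *IL10RB* and *IL12RB1* serve several ligands each.

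The arrays had 43803 spots that were not controls, of which 32835 to 33972 per array were flagged by the scanner software as well above background. None was saturated. The ileal bile acid binding protein gene *FABP6* lay well above background on all 4 arrays, with a log2 difference of 0.02 between groups. Values below are log2 processed signal minus the array's 75th percentile, so 0 is the level of that percentile, and levels are compared only between arrays for the same probe. Differences are low gain minus high gain, with the standard error (SE) of limma's fit and n = 2 arrays per group. With 4 arrays, an exact permutation test of a single gene cannot go below p = 0.333 (two-sided), so the fit across all probes was used.

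No interleukin or receptor gene passed the test. Of the 33 genes, 28 were bright enough to be tested. Of these, 12 had a higher mean in low gain (42.9%, against 53.4% of all genes tested) and 16 a lower one. The median log2 difference was -0.13, against 0.02 over all 2158 genes tested. This median was -0.022 without high-gain array a, -0.076 without low-gain array b, -0.077 without high-gain array b and -0.032 with no filter on dim probes. The lowest adjusted p among the 28 was 0.217 by limma with Benjamini-Hochberg adjustment, and it belonged to *IL1B*. Over the whole table, 80 of 33265 probes (0.24%) and 9 of 2158 genes (0.417%) passed. At an unadjusted p under 0.05 there were 4 members, *IL1B* and *IL10RB* with higher means and *IL2RG* and *IL10* with lower means. That is 14.3% of the members tested, against 21.6% of all genes tested, so the share among members was not above the background. The number was 1 without low-gain array a, 0 without high-gain array a and 8 without high-gain array b. When the prior variance followed signal intensity, 0 of 28 members passed (lowest adjusted p = 0.0824), where 7.88% of all genes did.

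The arrays of the groups did not overlap for 14 of the 28 members, with 5 where both low-gain arrays lay above both high-gain arrays and 9 where they lay below. This share of 50% compares with 61.8% of all genes tested. The ligand genes were evenly divided, 9 with a higher and 9 with a lower mean in low gain, and their median was -0.01. Of 10 receptor genes tested, 3 had a higher and 7 a lower mean in low gain, with a median of -0.20. Over all genes tested, 53.4% had a higher mean in low gain. For 9 of the 10 receptor genes high-gain array a lay above high-gain array b, as described below. The numbers of higher and lower means are counts of means and not of changes past the test.

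**Figure D1:**
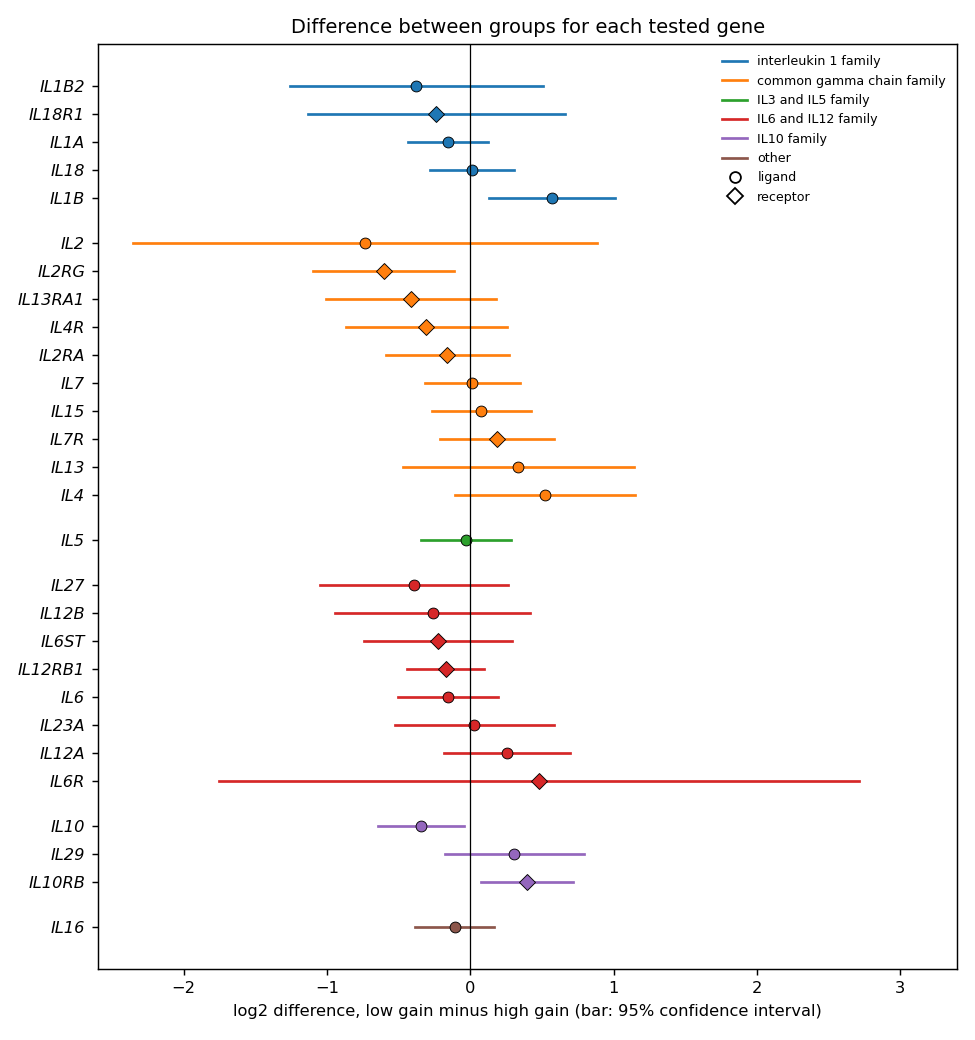
The horizontal axis gives the log2 difference, low gain minus high gain, with its 95% confidence interval from limma as a bar, for the 28 tested genes grouped by family. Intervals of IL1B, IL10RB, IL2RG and IL10 lie to 1 side of 0 before adjustment, and those of IL2 and IL6R are the widest.

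The IL-1 family had 5 members, all tested, of which 2 had a higher and 3 a lower mean in low gain. *IL1B*, which encodes the inflammatory cytokine IL-1 beta, gave -0.17 on both low-gain arrays, and -0.92 and -0.56 on high-gain arrays a and b. Both low-gain arrays were above both high-gain arrays. The difference was 0.57 ± 0.16 (SE), or 1.48-fold, with a 95% interval of 0.13 to 1.01 and a limma adjusted p of 0.217. *IL1B* had no other probe.

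*IL1B2* is a closely related porcine copy of *IL1B*, and whether its probes also bind *IL1B* transcripts was not tested. Its brightest probe gave -1.25 and -1.06 on the low-gain arrays against -0.36 and -1.20 on the high-gain arrays. Only high-gain array a was apart, and high-gain array b lay between the low-gain arrays. The difference of -0.38 ± 0.32 became 0.04 when high-gain array a was left out. The other probes of *IL1B2* gave -0.46 and 0.10, so its 3 probes did not share a direction.

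The other members of the family differed less. *IL1A*, the gene for IL-1 alpha, gave -2.48 and -2.45 in low gain and -2.35 and -2.28 in high gain, a difference of -0.16 ± 0.10 with arrays that did not overlap. *IL1A* and *IL1B* are direct neighbours in the pig annotation, and their means differed in opposite directions. *IL18* encodes a cytokine that epithelium makes without stimulation and that prompts interferon gamma release. It gave 3.21 and 3.26 in low gain and 3.16 and 3.27 in high gain, so the groups overlapped, and the difference was 0.01 ± 0.11 (95% interval -0.28 to 0.31). Its other probe gave 0.05. *IL18R1*, the IL-18 receptor chain, differed by -0.24 ± 0.32, with a gap of 0.78 between the high-gain arrays. The difference became 0.15 without high-gain array a. Its other probe, well above background on only 1 array of each group, was not tested and differed by -1.10.

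The common gamma chain family, taken here with *IL13*, had 12 members of which 10 were tested, 5 with a higher and 5 with a lower mean in low gain. *IL2RG*, the common gamma chain itself, gave -2.11 and -2.24 on arrays a and b of low gain, and -1.37 and -1.77 on those of high gain. Both low-gain arrays lay below both high-gain arrays. The difference was -0.60 ± 0.18 (95% interval -1.10 to -0.11), a level 1.52-fold lower in low gain, with a limma adjusted p of 0.225. The other *IL2RG* probe gave -3.05 and -3.14 in low gain against -2.08 and -2.51 in high gain, again without overlap, a difference of -0.80 ± 0.18 (adjusted p = 0.194). On both probes the higher high-gain value was that of array a, and without that array the brightest probe gave -0.40.

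Among the ligands that use this chain, *IL2*, the T cell growth factor gene, had the largest difference of all tested members, -0.73, but with an SE of 0.58. It gave -6.88 and -5.25 in low gain and -5.30 and -5.36 in high gain. A single array was apart, low-gain array a, where the probe was not well above background, and without it the difference was 0.08. The IL-2 receptor alpha gene *IL2RA*, known as CD25 on activated and regulatory T cells, gave -5.71 and -5.60 in low gain and -5.66 and -5.33 in high gain, which overlap (difference -0.16 ± 0.15).

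*IL4*, which directs type 2 immunity and antibody class switching, gave -5.31 and -5.84 on the low-gain arrays and -5.97 and -6.22 on the high-gain arrays. The low-gain arrays were the higher ones without overlap, and the difference was 0.52 ± 0.23 (1.43-fold, limma adjusted p = 0.324), or 0.26 without low-gain array a. The *IL4* probe was dim, though well above background on all 4 arrays. Its difference was 0.052 with normexp background correction, whose offset draws dim probes together. *IL13*, a cytokine that acts on goblet cells and is the direct neighbour of *IL4* in the annotation, gave -5.42 and -6.06 in low gain and -6.30 and -5.86 in high gain. Its groups overlapped, its difference was 0.33 ± 0.29, and it was well above background on 1 of the 2 high-gain arrays. The difference was 0.014 without low-gain array a and 0.11 without high-gain array a. The receptor chains for both cytokines had lower means in low gain. *IL4R* gave -1.91 and -1.96 in low gain and -1.37 and -1.88 in high gain, a difference of -0.31 ± 0.20 (adjusted p = 0.467). *IL13RA1* gave -3.26 and -3.23 in low gain and -2.56 and -3.10 in high gain, a difference of -0.41 ± 0.21 (adjusted p = 0.382). Neither receptor's arrays overlapped between groups, but in each the gap came mostly from high-gain array a, and without it the differences were -0.06 and -0.14.

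The rest of this family lay close to 0. *IL7*, a survival factor for lymphocytes made by stroma and epithelium, differed by 0.01 ± 0.12, and *IL15*, which sustains cytotoxic and natural killer cells, by 0.08 ± 0.12, with 0.15 on its other probe. *IL7R*, the IL-7 receptor alpha chain, differed by 0.18 ± 0.14, and by 0.30 ± 0.13 on its other probe. The 95% intervals were -0.31 to 0.34 for *IL7*, -0.27 to 0.42 for *IL15* and -0.21 to 0.58 for *IL7R*. *IL5*, the eosinophil growth factor gene, signals through a different shared chain and lies near *IL4* and *IL13* in the annotation. It gave -2.21 and -2.28 in low gain and -2.13 and -2.29 in high gain, a difference of -0.03 ± 0.11.

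**Figure D2:**
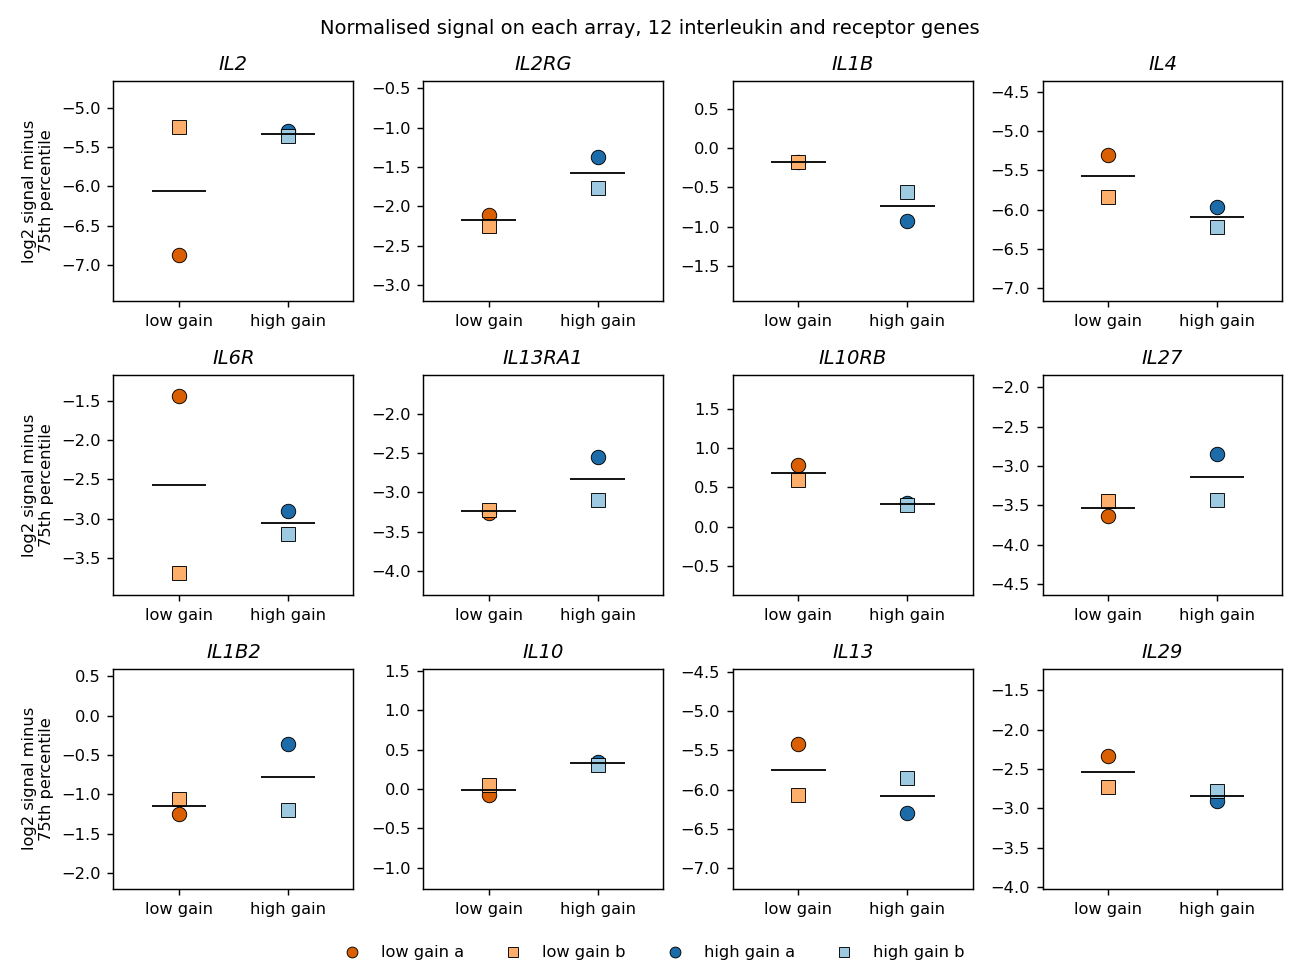
Each panel shows the log2 signal minus the array's 75th percentile for 1 gene on each of the 4 arrays, with group means as lines and the same vertical span in every panel. The 12 genes are those with the largest differences among members well above background on at least 3 arrays, and the differences of IL2 and IL6R rest on low-gain array a.

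The IL-6 and IL-12 families had 10 members, 8 of them tested, with 3 higher and 5 lower means in low gain. *IL6*, an inflammatory cytokine that also promotes immunoglobulin A production, gave -1.09 and -1.10 in low gain and -1.05 and -0.82 in high gain. The arrays did not overlap, yet the difference was only -0.16 ± 0.13 (limma adjusted p = 0.545), and its other probes gave -0.05 and -0.04. Without high-gain array b it was -0.039. The signal transducer *IL6ST* gave 0.08 and 0.17 in low gain and 0.57 and 0.13 in high gain, so the groups overlapped and high-gain array a stood highest. Its difference was -0.22 ± 0.19, with -0.42 ± 0.22 on its other probe, and on the brightest probe it was -0.0022 without high-gain array a.

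*IL6R*, the chain that binds IL-6, showed the least repeatable value among the tested members. Its brightest probe gave -1.44 on low-gain array a and -3.69 on low-gain array b, against -2.90 and -3.19 in high gain. The difference of 0.48 ± 0.81 turned to -0.65 without low-gain array a. The other probes gave -0.04 and -0.34, and on these the low-gain arrays differed from each other far less, at -3.87 and -4.05 on the first and -5.54 and -5.66 on the second.

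*IL27*, which encodes a subunit of a cytokine that limits T helper responses, gave -3.63 and -3.45 in low gain and -2.85 and -3.44 in high gain. The groups did not overlap, but high-gain array b was close to low-gain array b. The difference was -0.39 ± 0.24 (adjusted p = 0.437) and was -0.10 without high-gain array a. Of the subunits of IL-12 and IL-23, *IL12A* differed by 0.26 ± 0.16 without overlap (0.083 without high-gain array a), the shared subunit gene *IL12B* by -0.26 ± 0.25 and *IL23A* by 0.03 ± 0.20. The *IL12B* difference turned to 0.06 without low-gain array a. *IL12RB1*, the receptor chain shared by IL-12 and IL-23, gave -2.04 and -2.07 in low gain and -1.88 on both high-gain arrays. These arrays agreed closely within each group and did not overlap, and the difference was -0.17 ± 0.10 (limma adjusted p = 0.413).

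The IL-10 family had 3 members, all without overlap between groups, which held for 61.8% of all genes tested. *IL10*, the gene for the main anti-inflammatory interleukin, gave -0.08 and 0.05 on arrays a and b of low gain, and 0.34 and 0.31 on those of high gain. Both low-gain arrays were below both high-gain arrays, and the gap within each group was small. The difference was -0.34 ± 0.11 (95% interval -0.64 to -0.04), or 1.27-fold lower in low gain, with a limma adjusted p of 0.239. The other probe of *IL10* gave -2.82 and -2.64 in low gain and -2.14 and -2.19 in high gain, a difference of -0.56 ± 0.12 (adjusted p = 0.184).

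*IL10RB*, the receptor chain shared by IL-10, type III interferons and other members of the family, gave 0.78 and 0.60 in low gain and 0.31 and 0.28 in high gain. Its direction was opposite to that of *IL10*. The difference was 0.40 ± 0.12 (95% interval 0.07 to 0.72), or 1.32-fold higher in low gain, with an adjusted p of 0.225. *IL29* gave -2.34 and -2.73 in low gain and -2.91 and -2.77 in high gain, a difference of 0.31 ± 0.18 (1.24-fold, limma adjusted p = 0.419), where low-gain array b and high-gain array b were nearly equal, and it was 0.11 without low-gain array a. *IL16*, a chemoattractant for CD4 cells that belongs to none of these families, gave 3.89 and 3.91 in low gain and 3.98 and 4.05 in high gain, a difference of -0.11 ± 0.10.

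The 5 members that were not tested lay at the bottom of the signal range. *IL9*, *IL17A*, *IL21* and *IL23R* were not well above background on any array, and *IL12RB2* was so on 1 low-gain array only. *IL17A*, *IL21* and *IL23R* belong to the response of T helper 17 cells, the line that guards mucosal surfaces. Their transcripts were not detectable with these probes, which does not show that they were absent, and no fold is given. *IL2* and *IL21* are direct neighbours in the annotation, and both probes were dim.

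Of the tested members, 10 were read by several tested probes, and in 7 of these all probes shared a direction. The 7 were *IL6*, *IL6ST*, *IL7R*, *IL10*, *IL15*, *IL18* and *IL2RG*. The exceptions were *IL5*, whose values lay next to 0, *IL6R* and *IL1B2*. For *IL10* and *IL2RG* the dimmer probe gave the larger difference. Probes of 1 gene share the same RNA, so they check the reading of the transcript and not the difference between piglets.

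**Figure D3:**
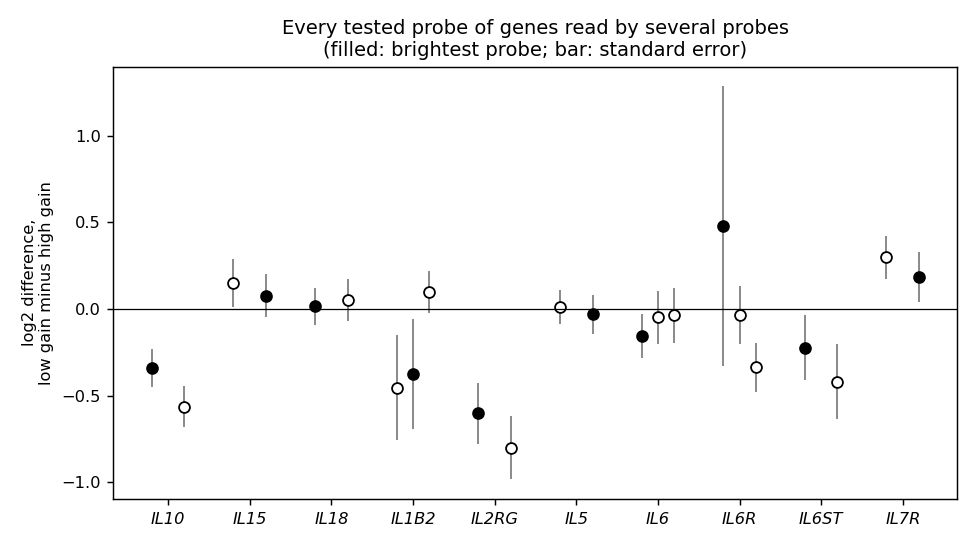
Points show the log2 difference, low gain minus high gain, of every tested probe of the 10 genes read by several probes, with the standard error as a bar and the brightest probe filled. Both IL10 probes and both IL2RG probes lie below 0, and the brightest IL6R probe has the longest bar.

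Arrays within the high-gain group differed more for the members than for the array as a whole. The median absolute log2 difference between high-gain arrays a and b was 0.24 over the 28 tested members, against 0.14 over the 31471 probes well above background on all arrays. Between low-gain arrays it was 0.14 for both. High-gain array a gave the higher value for 9 of 10 receptor genes, with a median gap of 0.34, and for 8 of 18 ligand genes, with a median gap of -0.07. Over all genes tested, array a was higher in 42.3% and the median gap was -0.04. This count was made after the values were seen and has no test. Large gaps in this direction were not limited to receptors, as the ligand genes *IL1B2* (0.84) and *IL27* (0.59) had them too. The receptor genes with the largest gaps were *IL18R1* (0.78), *IL13RA1* (0.54), *IL4R* (0.50), *IL6ST* (0.44) and *IL2RG* (0.40). These 5 are also among the receptor genes with lower means in low gain, and their differences without this array are given above.

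**Figure D4:**
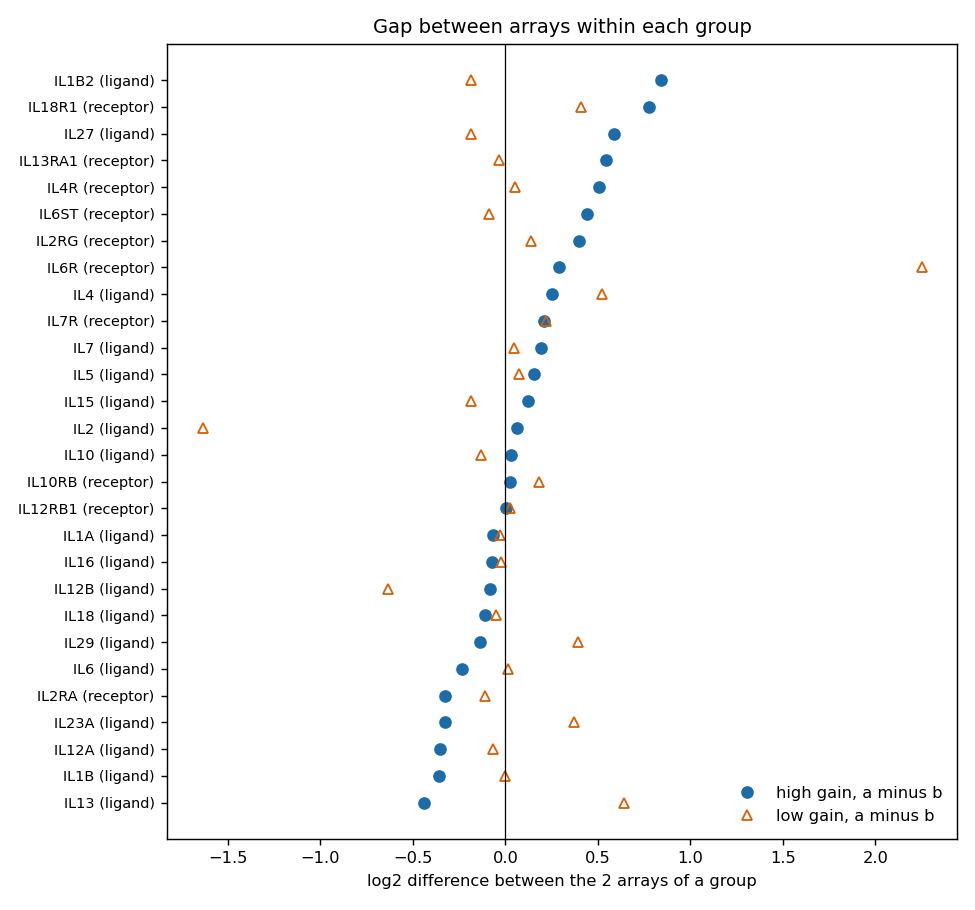
The horizontal axis gives array a minus array b on the log2 scale, separately for high gain (filled circles) and low gain (open triangles), for the 28 tested genes sorted by the high-gain gap. Many receptor genes lie near the top, where high-gain array a was higher, together with the ligand genes IL1B2 and IL27. IL6R and IL2 stand apart in low gain.

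The signals that pass on interleukin binding were read from a list of 59 other genes of the pathway, kinases, transcription factors, inhibitors, adaptors and related cytokines. Of these 27 were tested, 14 with a higher and 13 with a lower mean in low gain. Their median was 0.00, against 0.02 over all genes tested. None passed the limma test (lowest adjusted p = 0.181), and 8 had an unadjusted p under 0.05, or 29.6% against 21.6% of all genes tested. When the prior variance followed intensity, where 7.88% of all genes passed, 1 of the 27 did, *CASP1*, the protease gene whose product releases mature IL-1 beta and IL-18 (adjusted p = 0.0276).

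*CASP1* gave 3.21 and 3.12 in low gain and 2.46 and 2.65 in high gain, a difference of 0.61 ± 0.12 (limma adjusted p = 0.181 without the trend). Its substrates are the products of *IL1B*, at 0.57, and *IL18*, at 0.01. The other genes with the largest positive differences were *FOXP3*, the regulatory T cell factor (0.94 ± 0.33), *TRAF6*, an adaptor of the IL-1 receptor pathway (0.36 ± 0.11), and *LIF*, a cytokine of the IL-6 family (0.33 ± 0.24). The tested *FOXP3* probe was itself dim, at -5.08 and -4.25 in low gain and -5.46 and -5.74 in high gain. The other 2 probes of *FOXP3*, which differed by 0.09 and 0.17, were too dim to be tested.

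The largest negative differences were those of *MYD88*, the adaptor that IL-1 and IL-18 receptors use (-1.0 ± 0.29), *STAT5A*, a factor activated downstream of the common gamma chain (-0.63 ± 0.15), *STAT6*, the factor activated by IL-4 and IL-13 (-0.49 ± 0.11), and *CSF2*, a growth factor gene of myeloid cells (-0.38 ± 0.19). *STAT6* gave -0.99 and -1.05 in low gain and -0.45 and -0.60 in high gain, but its other probe differed by -0.09. *STAT5A* gave -2.80 and -2.69 in low gain and -1.96 and -2.27 in high gain, with -0.36 on its other probe. *MYD88* gave -3.21 and -3.13 in low gain and -1.79 and -2.55 in high gain, where high-gain array a was again the higher. *STAT5B*, the paralogue of *STAT5A*, differed by 0.00 ± 0.10, but by -0.42 on its other probe.

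**Figure D5:**
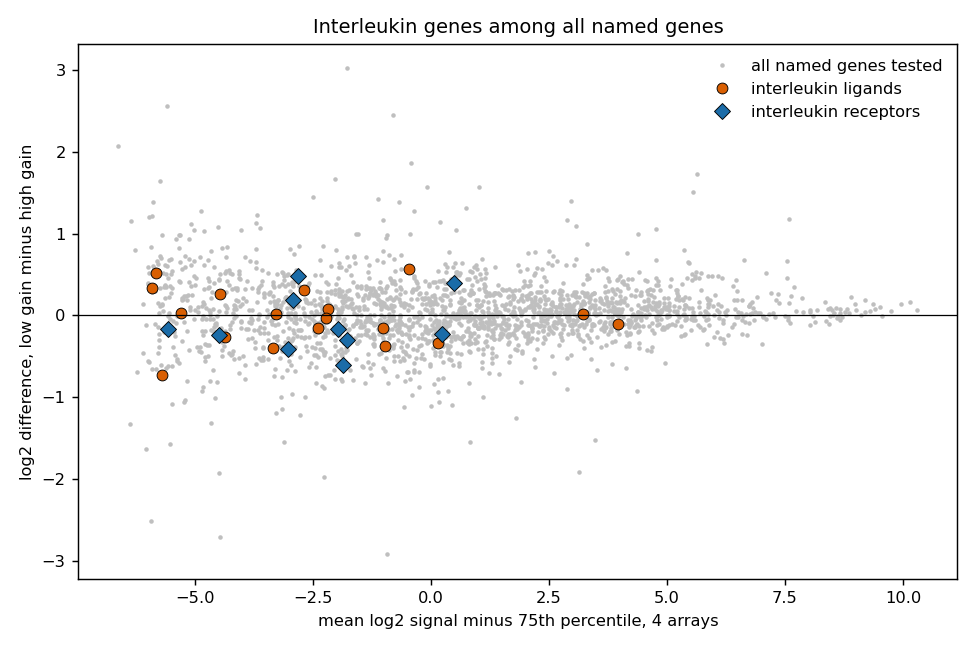
Each point is 1 gene, with mean log2 signal minus the 75th percentile over 4 arrays on the horizontal axis and the log2 difference, low gain minus high gain, on the vertical axis. The 28 interleukin genes lie within the grey cloud of the 2158 genes tested.

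Fewer cells of a type and less RNA per cell cannot be told apart in tissue RNA, so markers of the cells that make or bind interleukins were read as well. Of all markers listed here, 1 passed the limma test, the granzyme gene *GZMK* of cytotoxic cells (adjusted p = 0.0383). Summed signal weighs the brightest probe of a list most, such as *GZMB* for cytotoxic cells and *FABP6* for epithelium. In multiples of the array's 75th percentile, the sum over 6 of 10 cytotoxic and natural killer markers was 14.1 to 14.7 in low gain. In high gain it was 6.44 to 6.55. Of these 6 markers, 5 had higher means in low gain, and *NCR1* differed by -0.10. For 7 of 11 macrophage and dendritic cell markers, summed signal was 23.2 to 23.4 against 26.5 to 27.0, and all 7 had lower means in low gain. The 8 of 11 T cell markers measured gave 16.6 to 16.8 against 19.8 to 21.3, although 6 of the 8 had higher means in low gain and their median was 0.29, as *CD247*, the brightest, differed by -0.67. The 3 of 8 B cell markers gave 12.1 to 12.9 against 13.2 to 15.6, and the 5 of 7 mast cell and eosinophil markers 3.64 to 3.70 against 3.39 to 3.41. The 4 of 8 neutrophil markers gave 0.956 to 1.03 against 1.41 to 1.94, where *NCF1*, the brightest, differed by -1.11, while the other 3 had higher means in low gain and the median was 0.54. The 5 of 11 epithelial markers gave 529.1 to 565.6 against 481.6 to 543.6, the 3 of 5 smooth muscle markers 266.5 to 270.3 against 205.9 to 208.7, and the 5 fat cell markers 1.82 to 2.69 against 4.05 to 4.08. The part of these cells in the interleukin values was not tested.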

How the data were processed

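The authors deposited scanner files of 4 single-colour arrays, holding intensity values for each spot. Per the file headers these came from the software Agilent Feature Extraction, version 10.7.3.1, whose processed signal has had its background treated. A second deposited file held log2 values. How the authors made it is not stated in the labels or headers. It followed log2 processed signal with slopes of 1.00 to 1.01 (spots well above background), was not centred, had column medians of 5.59 to 5.67, and served as an alternative.

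Processed signal was taken to log2, less the 75th percentile of all non-control spots on the same array. Spots with a feature outlier flag were dropped and spots of 1 probe averaged. Of 43603 probes, 48 lacked a value, and 33265 were well above background on both arrays of at least 1 group and were tested in R 4.3.3 by limma 3.58.1 (lmFit, eBayes) with Benjamini-Hochberg adjustment over all of them and a threshold of 0.05. The fit was run on simulated data with the same spread for every probe and planted changes larger than that of any tested member. That run cannot show how often differences of the size reported here would be found. RefSeq accessions without versions were matched to the NCBI gene table of Sscrofa11.1 (5461 of 5779 such probes, 2389 genes). The files name no build, so no coordinates are given. The brightest probe stood for a gene.

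The members and lists were chosen with earlier results of these data known. Each member is named with its difference. Values on every array are given for the 12 largest differences among members above background on at least 3 arrays and their ligands or receptors, and the 4 largest signalling differences in each direction are named. Alternatives changed scaling, background correction, filter, prior variance, probe rule, source of values and pairing, or left out 1 array. All arrays lay on 1 slide. Probe and gene sequences were not used here.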

Additional observations from a re-analysis of the deposited data

How the results depend on the processing

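No member passed the test in any of the 13 alternatives, 4 of which left out 1 array. Over all probes, the 80 past the test became 163 with median centring, 1250 with the trend, 25 with the mean over probes, 12 with no filter, 0 with normexp, with signal required on all 4 arrays or with the block, and 0 to 37 without 1 array. The number of signalling genes past the test was 1 with the intensity trend and 0 in the others. Members with an unadjusted p under 0.05 numbered 4 in the reported fit and 0 with normexp. With normexp the differences were 0.33 for *IL1B*, 0.17 for *IL10RB*, -0.30 for *IL2RG* and -0.12 for *IL10*. Why they were smaller was not tested. Members with an unadjusted p under 0.05 numbered 0 to 8 when an array was left out. With the letter as a replicate block there were 4, and the lowest adjusted p was 0.346. The letters were not treated as pairs, since the a minus b differences of both groups correlated at -0.04 across probes.

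Of 28 genes, 15 kept their direction in every setting that measured them, 5 higher and 10 lower in low gain, among them *IL1B*, *IL10RB*, *IL2RG* and *IL10*, and also *IL6ST*, which was at -0.0022 without high-gain array a. Part of this is fixed, since another filter, the trend and the block leave the differences as they are. Leaving out an array also cannot reverse a gene whose groups do not overlap. The 15 are the 14 members without overlap and *IL6ST*, so their number adds little to that count. Groups did not overlap for 61.8% of all genes tested. Directions changed with normexp for *IL2* (0.0018), *IL2RA* (0.0033), *IL6R* (-0.13), *IL7* (-0.049), *IL7R* (-0.0038), *IL12B* (0.0046), *IL13* (-0.018) and *IL23A* (-0.024). They changed with quantile normalisation for *IL18* (-0.014) and *IL23A* (-0.038), and with the deposited values for *IL7* (-0.052) and *IL23A* (-0.038). The cause was not tested. With 1 array left out the ranges that crossed 0 were -1.55 to 0.085 for *IL2*, -0.65 to 1.6 for *IL6R*, -0.80 to 0.045 for *IL1B2*, -0.63 to 0.15 for *IL18R1*, -0.58 to 0.056 for *IL12B*, -0.16 to 0.22 for *IL23A*, -0.32 to 0.00050 for *IL2RA*, -0.11 to 0.045 for *IL5*, -0.081 to 0.11 for *IL7*, -0.041 to 0.070 for *IL18* and -0.017 to 0.17 for *IL15*. Low signal over background limits *IL2*, *IL13* and the 5 untested genes. *IL4* was also dim, and its difference was 0.052 with normexp.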
